A study of Mus musculus with 6 samples.

Results

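The E2F factors and pocket proteins of mouse embryonic fibroblasts (MEFs) were followed in RNA-seq libraries of Rnf40+/+ and Rnf40-/- cells. The 10 genes were chosen by symbol, as the 8 E2f genes (E2f1 to E2f8) and the 2 pocket protein genes Rbl1 and Rbl2, out of 29955 genes in the deposited table, and all 10 were present and had enough reads to be tested. RNF40 is a subunit of the ubiquitin ligase that places monoubiquitin on histone H2B (H2Bub1), and the comparison asks which transcripts depend on it. There were 3 libraries of Rnf40+/+ MEFs and 3 of Rnf40-/- MEFs, all primary cells at passage 3. According to the methods, the knockout cells came from embryos that were homozygous for an Rnf40 allele with exons 3 and 4 between loxP sites and that carried a tamoxifen-inducible Cre recombinase (CreERT2) in the Rosa26 locus, which is expressed in all tissues. Deletion was induced with 250 nM 4-hydroxytamoxifen (4-OHT) for 5 days, and the cells were then kept for 3 days without it. The records of both genotypes carry the same note on 4-OHT, which is worded as the step for the knockout, and they do not state whether the Rnf40+/+ cells received it or carried CreERT2, so deletion and treatment cannot be told apart. The labels do not state whether the 3 libraries of a genotype came from separate embryos or separate cultures, and p values therefore measure the spread between these libraries, which may be technical.

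E2F factors are transcription factors that switch genes of DNA replication and of the cell cycle on and off as cells leave G1 and enter S phase. E2F1, E2F2 and E2F3 are usually described as activators, E2F4 and E2F5 as repressors that work together with pocket proteins, E2F6 as a repressor that does not bind pocket proteins and sits in a Polycomb-type complex, and E2F7 and E2F8 as atypical repressors that bind DNA without a DP partner. The pocket proteins RB, p107 (Rbl1) and p130 (Rbl2) bind E2F factors in resting and early G1 cells and are released from them by cyclin-dependent kinases. Several of these genes, among them E2f1, E2f7, E2f8 and Rbl1, are known targets of E2F factors themselves.

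The libraries held between 17053436 and 26344170 reads on genes in Rnf40+/+ MEFs and between 18115481 and 20495627 in Rnf40-/- MEFs. Values are given as normalized counts, which are reads scaled by a single size factor for each library, and 3 reads, taken as the limit of detection, correspond to normalized counts from 2.40 to 3.58. Rnf40 itself had 1278, 1195 and 1096 normalized counts in Rnf40+/+ MEFs, compared with 439, 519 and 487 in Rnf40-/- MEFs, so each library matched its label. The deleted exons 3 and 4 hold 310 (7.46%) of its exon bases, and the table does not separate them from the others. For the marker counts that follow, 24.1% of all genes tested were lower and 23.3% were higher (limma, adjusted p under 0.05). The fibroblast markers Col1a1, Col1a2, Vim and Fn1 were abundant in all libraries (Col1a2, the least of them, was at 24166 ± 404 in Rnf40-/- MEFs). Pdgfra was at 740 ± 45.7 there. Col1a2 had 20.8% of its Rnf40+/+ level and Thy1 27.3%. Of the 9 fibroblast markers 8 were lower in Rnf40-/- MEFs (for Vim the call held in 5 of 15 alternatives). Their summed level was 669377.7 to 741256.0 normalized counts in Rnf40+/+ and 400372.5 to 403300.0 in Rnf40-/- libraries. Of 8 macrophage markers tested, 4 were lower and 1 was higher in Rnf40-/- MEFs, with a summed level of 2171 to 4755 against 1516 to 1735. The summed macrophage level was highest in Rnf40+/+ replicate 3, and C1qa was at 1211 there against 386 and 395 in the other Rnf40+/+ libraries. Of 5 endothelial markers 3 were higher and 1 lower, at a summed level of 138 to 279 against 225 to 315. In mean normalized counts Pecam1 went from 3.75 to 27.6, Cdh5 from 2.76 to 31.6 and Kdr from 27.4 to 84.5. Emcn fell from 126 to 55.3. The skeletal muscle marker Des was lower (summed muscle markers 119 to 438 against 27.1 to 44.9). Of the epithelial markers 2 were tested and 1, Cldn4, was higher, at a summed level of 30.6 to 86.0 against 43.8 to 62.2, while Myod1 had no read in any library. With at least 10 reads required in every library, Pecam1, Cdh5 and Cldn4 were not tested. The 2 neuronal markers tested did not pass the threshold by limma, edgeR or DESeq2, nor at an unadjusted p under 0.05, and the summed neuronal level was 1303 to 2731 against 1308 to 1495. The upper end of the Rnf40+/+ range came from replicate 1 for the endothelial, muscle, epithelial and neuronal sums. Des was at 431 there against 126 and 114 in the other Rnf40+/+ libraries, and Tubb3 at 2670 against 1275 and 1353. The part of these cell type differences in the values below was not tested.

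In Rnf40-/- MEFs 6 of the 10 genes were lower, namely E2f1, E2f3, E2f6, E2f7, E2f8 and Rbl1, and none was higher. The falls ranged from -0.24 for E2f3 to -1.99 for E2f8 on the log2 scale. E2f2, E2f4, E2f5 and Rbl2 did not pass the threshold, which was an adjusted p under 0.05 from limma with Benjamini-Hochberg adjustment over the 16378 genes tested. By the same rule 24.1% of all genes tested were lower and 23.3% were higher, 47.4% in all. The count of 0 higher genes was the same at an unadjusted p under 0.05, with edgeR and with DESeq2. The median log2 fold change (log2FC) of the 10 genes was -0.41, against -0.0035 for all genes tested. The genes were chosen with earlier results of these data known, so their shared direction is not independent evidence. For 7 of the 10 genes the values of the genotypes did not overlap, while this was so for 56.5% of all genes tested. These 7 include E2f5, which did not pass the threshold and whose nearest values were 358.6 (Rnf40+/+) and 356.9 (Rnf40-/-). With the thresholds of the study (mean above 15, unadjusted p under 0.05 and a log2FC beyond 1), applied here to limma p values and to fold changes with a pseudocount and not to the DESeq output, E2f7 and E2f8 were downregulated, and 5.70% of all genes tested were. No member was upregulated by these thresholds, against 4.25% of all genes tested. In bulk RNA, fewer cells that express a gene and less RNA of it per cell cannot be told apart.

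**Figure D1:**
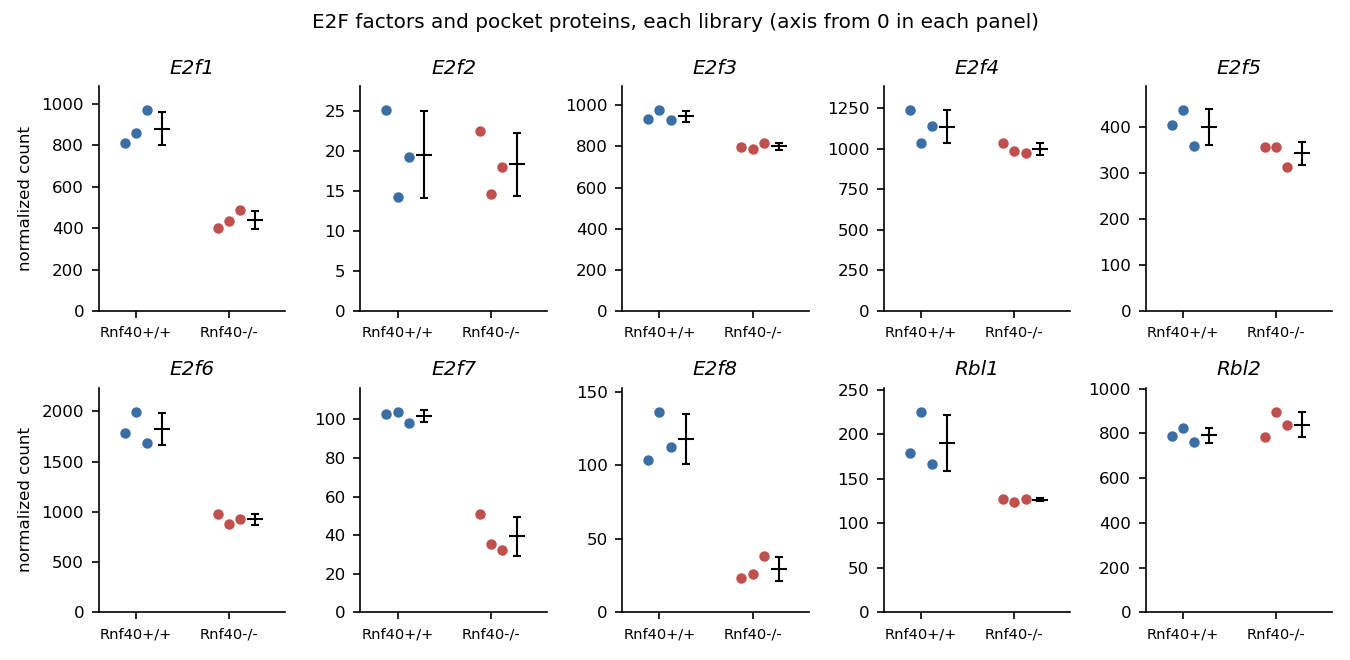
Normalized counts of the 10 genes in each library, with Rnf40+/+ in blue and Rnf40-/- in red, and the mean with SD (n = 3) beside the points; each vertical axis starts at 0. The points of E2f1, E2f6, E2f7 and E2f8 lie far apart between genotypes (E2f8 at 104 to 137 against 23.5 to 38.7), whereas those of E2f2, E2f4 and Rbl2 overlap.

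Among the activators E2f1 was affected most. E2f1 (ENSMUSG00000027490, chromosome 2 of mm9, minus strand, 154385143 to 154395628) had 813, 858 and 970 normalized counts in Rnf40+/+ MEFs, compared with 401, 435 and 486 in Rnf40-/- MEFs. Every Rnf40-/- library was thus below every Rnf40+/+ library, and the spread within a genotype was small against the distance between them. The means were 880.4 ± 80.9 and 441 ± 43.0 (SD, n = 3 each), and 50.1% of the Rnf40+/+ level remained. Its log2FC was -0.997 ± 0.10 (SE; limma, adjusted p = 7.11e-06), which is just short of the limit of 1 in the criteria of the study.

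E2f3 (ENSMUSG00000016477, chromosome 13, minus strand, 29998444 to 30077537) is transcribed from alternative starts into a long and a short form, which the table does not separate. Its normalized counts were 933, 977 and 931 in Rnf40+/+ and 795, 788 and 818 in Rnf40-/- MEFs. The values did not overlap, yet the fall was much smaller than that of E2f1. The log2FC was -0.24 ± 0.07 (SE; limma, adjusted p = 0.0133), and the call was lost if Rnf40-/- replicate 1 was omitted (-0.24, limma, adjusted p = 0.0564). When single libraries were omitted, the fall stayed between -0.26 and -0.22.

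E2f2 (ENSMUSG00000018983, chromosome 4, plus strand, 135728309 to 135751972) was close to the lower end of what these libraries measure. It had 25.1, 14.3 and 19.2 normalized counts in Rnf40+/+ and 22.4, 14.6 and 17.9 in Rnf40-/- MEFs, which rest on 14 to 24 reads. The ranges overlapped almost completely. The 95% interval of its log2FC ran from -0.83 to 0.69 around -0.07 (limma, adjusted p = 0.882), so that a change within these bounds was not detectable at this depth, and the sign of the estimate turned without Rnf40+/+ replicate 1 and without Rnf40-/- replicate 2.

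Neither of the pocket protein dependent repressors passed the threshold. E2f4 (ENSMUSG00000014859, chromosome 8, plus strand, 107821563 to 107829269) had 1240, 1034 and 1140 normalized counts in Rnf40+/+ and 1039, 984 and 975 in Rnf40-/- MEFs, and the ranges overlapped at 1 library each, Rnf40+/+ replicate 2 and Rnf40-/- replicate 1. The log2FC was -0.18, with a 95% interval from -0.36 to -0.0084 and an adjusted p of 0.0794 from limma. It passed the threshold without Rnf40+/+ replicate 2 (-0.25, limma, adjusted p = 0.0271). E2f5 (ENSMUSG00000027552, chromosome 3, plus strand, 14578671 to 14606308) had 404, 436 and 359 normalized counts in Rnf40+/+ and 357, 357 and 313 in Rnf40-/- MEFs. Its log2FC of -0.22 had an interval from -0.45 to 0.013 (limma, adjusted p = 0.111). Without Rnf40+/+ replicate 3, which had the lowest value of its group, it was -0.30 (limma, adjusted p = 0.0372).

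E2f6, the Polycomb-linked repressor, fell about as far as E2f1 from a higher count. E2f6 (ENSMUSG00000057469, chromosome 12, plus strand, 16817771 to 16833549) had 1788, 1997 and 1681 normalized counts in Rnf40+/+ and 981, 875 and 925 in Rnf40-/- MEFs. The highest Rnf40-/- library was far below the lowest Rnf40+/+ library. The means were 1822 ± 161 and 927 ± 53.2 (SD, n = 3 each), which leaves 50.9%. Its log2FC was -0.972 ± 0.08 (SE; limma, adjusted p = 1.88e-06) and stayed between -1.03 and -0.90 when single libraries were omitted.

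The point estimates of the fall were largest for the atypical repressors, from low counts. E2f7 (ENSMUSG00000020185, chromosome 10, plus strand, 110182495 to 110224440) had 103, 104 and 98.2 normalized counts in Rnf40+/+ and 51.0, 35.5 and 32.1 in Rnf40-/- MEFs. The Rnf40+/+ libraries were nearly alike, while Rnf40-/- replicate 1 was higher than the other Rnf40-/- libraries. The log2FC of E2f7 was -1.37 ± 0.22 (SE; limma, adjusted p = 0.000279). E2f8 (ENSMUSG00000046179, chromosome 7, minus strand, 56121799 to 56136966) had 104, 137 and 113 normalized counts in Rnf40+/+ and 23.5, 26.1 and 38.7 in Rnf40-/- MEFs. The groups were far apart, and 24.99% of the mean level was left. The log2FC of E2f8 was -1.99 ± 0.24 (SE; limma, adjusted p = 3.08e-05). When single libraries were omitted, E2f7 stayed between -1.56 and -1.24 and E2f8 between -2.20 and -1.85. Of the exon bases of E2f8, 274 (5.03%) are shared with the lincRNA Gm2788 on the opposite strand, and it is not stated whether the counting used strand.

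Of the pocket proteins Rbl1 fell and Rbl2 did not pass the threshold. Rbl1 (ENSMUSG00000027641, chromosome 2, minus strand, 156971629 to 157030270), which encodes p107, had 179, 225 and 166 normalized counts in Rnf40+/+ and 127, 124 and 127 in Rnf40-/- MEFs. The Rnf40-/- libraries were nearly alike, and the spread came from the Rnf40+/+ group. The log2FC was -0.57 ± 0.15 (SE; limma, adjusted p = 0.00666), and it was smallest, -0.45, without Rnf40+/+ replicate 2 (limma, adjusted p = 0.0336). Rbl2 (ENSMUSG00000031666, chromosome 8, plus strand, 93593956 to 93647743), which encodes p130 and is the pocket protein typical of resting cells, had 788, 826 and 760 normalized counts in Rnf40+/+ and 783, 898 and 838 in Rnf40-/- MEFs. The ranges overlapped, and the log2FC of 0.08 had a 95% interval from -0.09 to 0.26 (limma, adjusted p = 0.415), which does not include a fall of the size seen for Rbl1. A stretch of 693 exon bases of Rbl2 (9.95%) is shared with Aktip on the opposite strand, and Aktip rose (log2FC 0.30, limma, adjusted p = 0.00782).

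**Figure D2:**
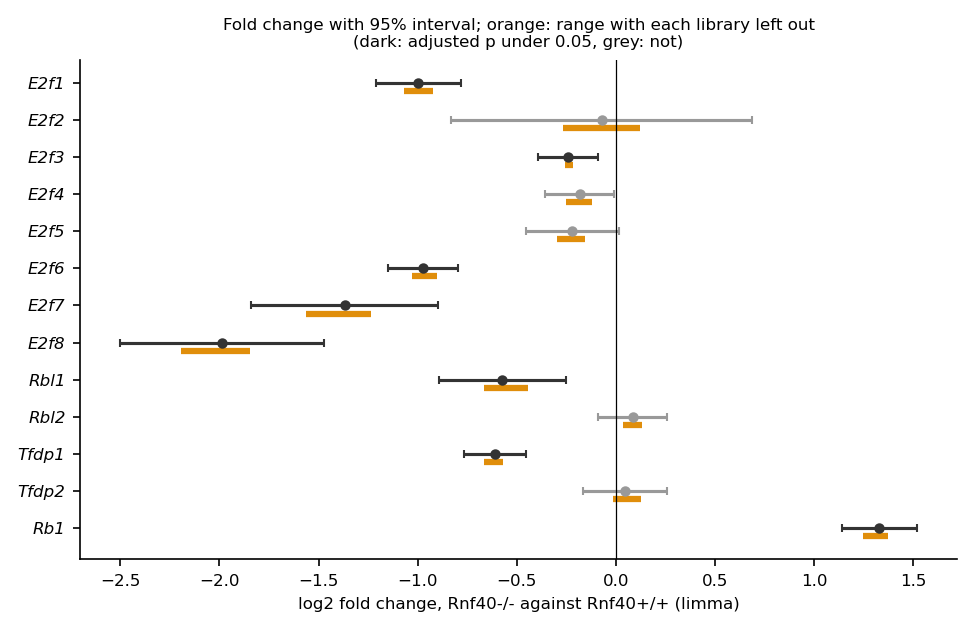
Log2 fold change of the 10 genes and of Tfdp1, Tfdp2 and Rb1 from limma, with the 95% interval as bars and, in orange below each, the range when each library was left out in turn; dark points passed an adjusted p of 0.05 and grey points did not. The interval of E2f8 runs from -2.50 to -1.47 and lies wholly below those of E2f1 and E2f6, and Rb1 is the gene with the interval far above 0.

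The promoters of the 10 genes were searched for E2F words because several of these genes are known E2F targets. The words were TTCCCGC and TTCGCGC as well as TTGCCGC and TTGGCGC, on either strand, in windows from 250 bases before to 50 bases after a RefSeq transcript start (GRCm38.p6, another build than the positions above). Such windows were given for 8 of the 10 genes, and E2f4 and E2f5 had none. At least 1 word was found in 5 of the 8, namely E2f2, E2f3, E2f7, E2f8 and Rbl1, as in 19 of 26 listed E2F target genes of DNA synthesis with a window. Over all genes 10.9% of 27025 had a word in at least 1 window, and 9.57% of all 32851 windows held one. The window given for E2f1 belongs to a start 466 bases inside the gene and does not cover its outermost promoter, and that of E2f8 belongs to a start 477 bases inside the gene. The windows of E2f7, E2f8 and Rbl1, which are known targets that fell and held words, and that of E2f6, which fell but held no word, are shown in the direction of transcription with the words in capitals.
E2f7 (chr10:110745189-110745488, plus strand): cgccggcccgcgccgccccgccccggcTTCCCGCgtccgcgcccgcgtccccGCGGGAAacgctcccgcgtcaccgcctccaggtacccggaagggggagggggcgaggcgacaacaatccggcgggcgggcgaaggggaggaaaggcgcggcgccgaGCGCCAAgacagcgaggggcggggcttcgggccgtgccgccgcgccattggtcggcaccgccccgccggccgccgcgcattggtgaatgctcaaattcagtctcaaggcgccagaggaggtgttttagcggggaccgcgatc
E2f8 (chr7:48881547-48881846, minus strand): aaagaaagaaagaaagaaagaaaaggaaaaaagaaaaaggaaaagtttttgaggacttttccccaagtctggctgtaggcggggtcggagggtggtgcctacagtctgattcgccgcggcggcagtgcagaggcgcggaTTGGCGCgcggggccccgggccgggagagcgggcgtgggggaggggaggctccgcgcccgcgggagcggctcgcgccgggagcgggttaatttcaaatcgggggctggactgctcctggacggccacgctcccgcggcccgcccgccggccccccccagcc
Rbl1 (chr2:157204485-157204784, minus strand): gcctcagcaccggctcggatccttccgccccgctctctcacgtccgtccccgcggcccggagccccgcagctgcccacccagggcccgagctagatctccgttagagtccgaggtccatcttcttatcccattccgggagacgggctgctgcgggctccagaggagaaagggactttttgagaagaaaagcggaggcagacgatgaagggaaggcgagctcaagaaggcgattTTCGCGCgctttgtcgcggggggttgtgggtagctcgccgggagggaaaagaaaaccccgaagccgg
E2f6 (chr12:16810715-16811014, plus strand): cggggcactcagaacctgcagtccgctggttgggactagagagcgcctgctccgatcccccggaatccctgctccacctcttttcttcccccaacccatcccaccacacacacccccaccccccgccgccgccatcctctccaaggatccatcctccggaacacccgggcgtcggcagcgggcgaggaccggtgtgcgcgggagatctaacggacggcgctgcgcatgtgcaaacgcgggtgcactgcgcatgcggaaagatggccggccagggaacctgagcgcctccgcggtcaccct
The E2f7 window held 3 words, at -223, -198 and -92 from the start. E2f8 held 1 at -111 and Rbl1 held 1 at -17. E2f3, which also fell but is not shown, held words at -11 and 19 in its outer window and none in its other window. The outer E2f2 window held 1 word although the transcript was scarce in both genotypes. The other E2f2 window and the Rbl2 window held none. A match describes the letters in the window and does not show binding.

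Of the partners, Tfdp1 fell and Rb1 rose. Tfdp1, which encodes the main DP subunit that E2F1 to E2F6 need to bind DNA, had 1888, 1951 and 1794 normalized counts in Rnf40+/+ and 1162, 1326 and 1204 in Rnf40-/- MEFs. The groups were well separated, with a log2FC of -0.61 ± 0.07 (SE; limma, adjusted p = 3.18e-05). Tfdp2, the other DP gene, had 647, 724 and 604 against 707, 726 and 608, with overlapping ranges and a log2FC of 0.05 (95% interval from -0.16 to 0.26, limma, adjusted p = 0.718). Rb1, the retinoblastoma gene, went the other way, from 590, 598 and 502 to 1412, 1494 and 1330 normalized counts. Even the lowest Rnf40-/- library was far above the highest Rnf40+/+ library, and the log2FC was 1.33 ± 0.09 (SE; limma, adjusted p = 2.98e-07). Rb1 shares exon bases with Rcbtb2 (488) and Lpar6 (408) on the opposite strand, and both of these fell (log2FC of -0.84 and -0.60, limma).

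Levels of different genes were compared per kilobase of annotated exons, on the normalized count scale. In each Rnf40+/+ library the order from high to low was E2f6, E2f4, E2f1, E2f5, E2f3, Rbl2, Rbl1, E2f8, E2f7 and E2f2. In each Rnf40-/- library it began with E2f4, followed by E2f6, E2f5, E2f3, E2f1, Rbl2 and Rbl1. E2f6 (742 ± 65.4 against 378 ± 21.7 per kb) thus went from the first to the second place and E2f1 (279 ± 25.7 against 139.7 ± 13.6 per kb) from the third to the fifth, while E2f4 was at 571 ± 51.6 and 502 ± 17.3 per kb (SD, n = 3 each). The scarcest were E2f8 (21.6 and 5.40 per kb), E2f7 (11.3 and 4.39 per kb) and E2f2 (4.00 and 3.75 per kb). In Rnf40-/- MEFs E2f1 (127 to 154 per kb) and Rbl2 (112 to 129 per kb) overlapped, and E2f2, E2f7 and E2f8 changed places between libraries, so that these neighbours did not differ beyond their spread. With the length of the longest transcript in place of all exons, E2f1 took places 6, 6 and 4 in the Rnf40-/- libraries, E2f3 places 4, 5 and 5, and Rbl2 places 5, 4 and 6, so the places of these 3 genes in Rnf40-/- MEFs depend on the length used, while E2f6 remained first in each Rnf40+/+ and second in each Rnf40-/- library. The summed level of the 8 E2f genes was 2056 ± 50.4 per kb in Rnf40+/+ and 1396 ± 33.4 per kb in Rnf40-/- MEFs (SD, n = 3 each).

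The make-up of this sum differed between the genotypes in some classes. E2f1, E2f2 and E2f3 together made up 22.1%, 22.8% and 25.3% of it in Rnf40+/+ and 20.8%, 22.3% and 23.7% in Rnf40-/- libraries, and these ranges overlapped. The share of E2f4 and E2f5 was 41.2%, 36.7% and 38.9% against 50.7%, 51.0% and 48.3%, higher in every Rnf40-/- library, although neither gene was higher in counts. The share of E2f6 was 35.2%, 38.8% and 34.2% against 27.9%, 26.0% and 27.2%. E2f7 and E2f8 made up 1.599% ± 0.138 of the sum in Rnf40+/+ and 0.701% ± 0.067 in Rnf40-/- MEFs (SD, n = 3 each). Rb1 held 40.7%, 38.9% and 37.9% of the summed level per kb of Rb1, Rbl1 and Rbl2 in Rnf40+/+ and 63.7%, 62.4% and 61.0% in Rnf40-/- libraries. The share of Rbl1 went from 13.2% ± 1.29 to 5.61% ± 0.36, and that of Rbl2 from 47.6% ± 1.69 to 32.0% ± 1.36 (SD, n = 3 each), while the count of Rbl2 itself did not pass the test. These shares are descriptions of RNA, and no test was made on sums over the genes.

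**Figure D3:**
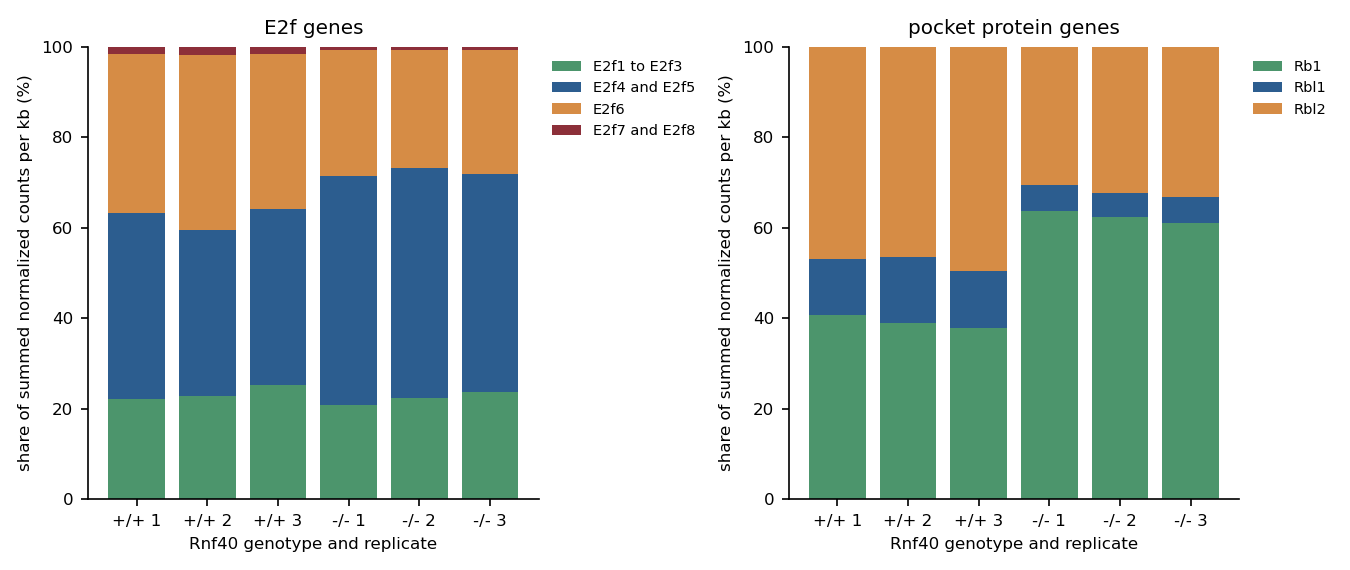
Share of each class in the summed normalized counts per kb of exon in each library, for the 8 E2f genes (left) and for Rb1, Rbl1 and Rbl2 (right); each bar is 1 library and adds up to 100%. The E2f4 and E2f5 part is wider in all 3 Rnf40-/- libraries (48.3% to 51.0% against 36.7% to 41.2%), and Rb1 takes 61.0% to 63.7% of the pocket sum against 37.9% to 40.7%.

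Genes of G1 cyclins, their kinases and CDK inhibitors were counted from lists set by known function, with earlier results of these data known. The same limma test over all genes was used. Of the 8 G1 cyclins and their kinases 6 fell, 1 rose and 1 did not pass (24.1% of all genes tested fell and 23.3% rose). The call of Ccnd3, the weakest of the 6 (log2FC -0.16, limma, adjusted p = 0.0429), held in 6 of 15 alternatives and in none in which a library was omitted. The largest falls were those of Cdk4, the kinase partner of D cyclins, from 6916 ± 429 to 3287 ± 240.1 normalized counts (log2FC -1.07, adjusted p = 3.93e-07), Cdk2, the partner of E cyclins, from 676 ± 67.8 to 354 ± 21.1 (-0.93, adjusted p = 1.2e-05), and Ccnd1, cyclin D1, from 10407 ± 1417 to 6328 ± 336 (-0.71, adjusted p = 5.64e-05, limma, SD, n = 3 each). Cdk6 was the gene that rose, from 82.1 ± 9.32 to 121 ± 20.1 (0.55, limma, adjusted p = 0.0241), and it lost the call if Rnf40+/+ replicate 2 was omitted, as it did without Rnf40-/- replicates 1 or 2. Of the 7 CDK inhibitor genes 3 fell and 4 did not pass, and none was higher by limma (also at an unadjusted p under 0.05), edgeR or DESeq2. Those that fell were Cdkn2a, which encodes p16INK4A and p19ARF (6869.5 ± 760 to 3447 ± 352, log2FC -0.99), Cdkn1b, which encodes p27 (598 ± 33.6 to 346 ± 23.4, -0.79), and Cdkn1a, which encodes p21 (14358 ± 706 to 9111 ± 307, -0.66), with adjusted p values from limma of 4.91e-06, 2.82e-05 and 8.2e-06.

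Among the 30 listed E2F target genes of DNA synthesis, 26 were lower, none was higher by limma (also at an unadjusted p under 0.05), edgeR or DESeq2, and 4 did not pass. Of all genes tested 24.1% were lower and 23.3% were higher by limma. The list was drawn up with earlier results of these libraries known, so its direction is not independent evidence. The median log2FC of the 30 genes was -1.46. Tk1, thymidine kinase, had the largest fall, from 304 ± 28.4 to 49.3 ± 1.52 normalized counts (log2FC -2.60, limma, adjusted p = 9.28e-08, n = 3 each). Mcm3, a subunit of the replicative helicase, and Uhrf1, which is needed to copy DNA methylation, fell as well (log2FC of -2.51 and -2.39, limma, adjusted p = 7.44e-07 and 1.09e-06). The 4 genes that did not pass were Pola1 (-0.27), Chek1 (-0.29), Msh6 (-0.14) and Tyms (0.11). The log2FC of E2f7 (-1.37) and E2f8 (-1.99) lay around this median, and that of E2f1 (-0.997) above it.

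These shares of all genes, 24.1% lower and 23.3% higher, also apply to the smaller lists that follow. The MuvB core forms the DREAM complex with E2F4 and p130, or the activating MYB complex with MYBL2. Of the 6 genes of the MuvB core and MYBL2, 2 were lower, none was higher by limma (also at an unadjusted p under 0.05), edgeR or DESeq2, and 4 did not pass. This share of lower genes was near that of all genes. Mybl2 went from 116 ± 8.97 to 58.0 ± 11.1 normalized counts (log2FC -1.002, limma, adjusted p = 0.0011) and Lin9 from 94.9 ± 20.8 to 48.4 ± 4.00 (-0.94, limma, adjusted p = 0.00285, SD, n = 3 each). Lin37, Lin52, Lin54 and Rbbp4 lay between -0.11 and 0.09. E2F6 acts in a complex with Polycomb-type and MGA/MAX proteins. Of 9 genes of its complex 2 fell, Cbx3 (log2FC -0.55, limma, adjusted p = 2.03e-05) and Ring1 (-0.52, limma, adjusted p = 0.0017), and Rnf2 rose (0.20, limma, adjusted p = 0.0251). The other 6, among them Mga (0.21, limma, adjusted p = 0.0513), L3mbtl2 and Pcgf6, did not pass. These counts do not exceed the shares of all genes. With edgeR 2 of the 9 genes were higher, as with DESeq2 size factors, upper-quartile scaling, the replicate block and some other alternatives. Rnf2 lost the limma call if Rnf40+/+ replicate 3 or any 1 Rnf40-/- library was omitted.

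**Figure D4:**
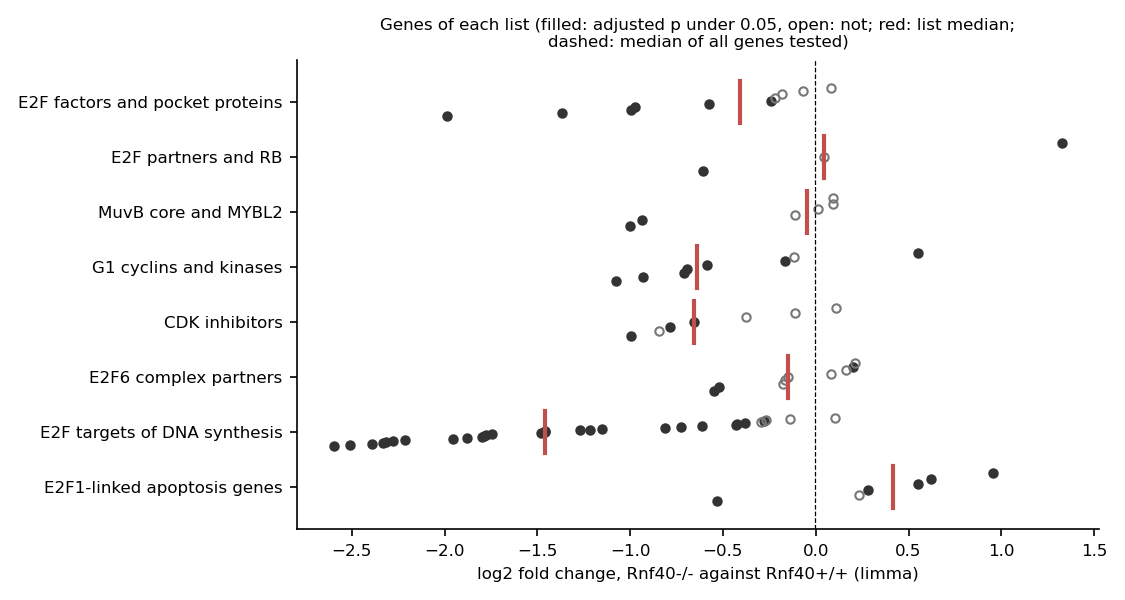
Log2 fold change (limma) of each tested gene in the listed groups, one row per group; filled points passed an adjusted p of 0.05, open points did not, red bars mark the median of the group and the dashed line the median of all genes tested (-0.0035). The E2F targets of DNA synthesis lie furthest to the left (median -1.46), the E2F factors and pocket proteins spread from -1.99 to 0.08, and most apoptosis genes lie to the right (median 0.42).

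Of the 7 listed genes that E2F factors are known to switch on for apoptosis 6 were tested, of which 4 rose, 1 fell and 1 did not pass, with a median log2FC of 0.42. Apaf1, which encodes the scaffold of the apoptosome, rose from 1337 ± 50.9 to 2055 ± 89.5 normalized counts (log2FC 0.62, limma, adjusted p = 1.41e-05, SD, n = 3 each), and Bbc3 and Bcl2l11, which encode BH3-only proteins, rose by 0.55 and 0.28. The call of Bcl2l11 (limma, adjusted p = 0.0337) held in 1 of the 6 tests with a library omitted, the one without Rnf40+/+ replicate 3. Pmaip1 fell (-0.53, limma, adjusted p = 9.11e-05). Of 8 genes on the list of germline genes that E2F6 is known to repress 2 had enough reads to be tested, and neither Stag3 (-0.62, limma, adjusted p = 0.0721) nor Tuba3a (-0.23, limma, adjusted p = 0.0837) passed. Tuba3a was abundant in both genotypes (4726 ± 827 and 3990.1 ± 245 normalized counts), unlike the other genes of the list. Both tested genes had an unadjusted p under 0.05, DESeq2 called 1 of them lower and edgeR none. Reads of Tuba3a are uncertain, as alpha tubulin genes are near copies of each other. Slc25a31 and Mael had no read in any library, and Smc1b, Ddx4 and Tuba3b did not reach 20 normalized counts in a library. Taf7l was at 5.97, 10.2 and 12.8 in Rnf40+/+ libraries and at 1.02, 0 and 0 in Rnf40-/- libraries.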

How the data were processed

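RNA-seq of 3 Rnf40+/+ and 3 Rnf40-/- libraries of MEFs was analysed from a table of values per gene symbol. Alignment by the authors was against mouse transcripts of the mm9 build, and DESeq scaled the counts. The deposited signal is therefore a read number that was divided by the size factor of its library. The submitters' processing notes name Bowtie2 (version 2.1.0) and DESeq (version 1.14.0), and the counting tool is not given in the sources used here. The library kit kept strand. Values above 0 came out as whole reads in 100% of cases (tolerance 0.001 reads) once multiplied by the size factor. Size factors ran from 0.837 to 1.25. Pairs of libraries within a genotype differed by more than sampling noise (chi-square per gene from 5.33 to 28.8).

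Differences were tested with limma (version 3.58.1, moderated with an intensity trend) after a log2 transform with a pseudocount of 1. The model held genotype alone, and p values were adjusted by Benjamini-Hochberg over all genes kept by filterByExpr of edgeR (version 4.0.16) on the recovered reads. A fold change on this scale understates the change of genes with few reads. The members and gene lists were chosen with earlier results of these data known. The genes named are the 10 members, Rnf40, Tfdp1, Tfdp2 and Rb1, the genes of each list with the largest changes past the threshold (up to 3 each way for the E2F targets, the G1 cyclins and kinases and the CDK inhibitors, 1 each way otherwise), members of short lists that are counted, and the 5 genes most like the member with the largest fall. Genes that share exon bases with a member or align to it, and the genes of the lists named beyond this rule, were chosen after their values were seen. The values of 1 gene that the rule names are not reported here. Of 29955 symbols 21123 matched the mm9 annotation (GENCODE vM1), which gave positions and the union of exon lengths. Of the members' transcripts, only those of E2f7 (174 bases at 90.2% identity to Nsl1) and Rbl2 (its overlap with Aktip) aligned to another coding gene with BLAST (version 2.17.0) at 90% identity or more. Nsl1 fell as E2f7 did (log2FC -1.26, limma, adjusted p = 0.000428).

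Alternatives were DESeq2 size factors and the DESeq2 Wald test (version 1.42.0), upper-quartile scaling, the quasi-likelihood test of edgeR, no filter, at least 10 reads in every library, pseudocounts of 0.1 and 10, a replicate block, the length of the longest transcript, and each library left out in turn. R (version 4.3.3) and Python (version 3.11.15) were used. No exact permutation test is given, since groups of 3 cannot bring its p below 0.05.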

Additional observations from a re-analysis of the deposited data

How the results depend on the processing

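E2f1, E2f6, E2f7, E2f8 and Rbl1 kept their direction and an adjusted p under 0.05 in all 15 alternatives. The number of lower members was 6 as reported and 5 to 7 in the alternatives, and the number of higher members was 0 in each. When single libraries were omitted, the log2 fold change ranged from -0.26 to -0.22 for E2f3, from -0.25 to -0.12 for E2f4 and from -0.30 to -0.15 for E2f5. These genes sit near the threshold, and 1 library decided their call. E2f2, whose value rests on 14 to 24 reads, ranged from -0.27 to 0.12 and turned positive without Rnf40+/+ replicate 1 (0.12) and without Rnf40-/- replicate 2 (0.07). The log2 fold change of Tfdp2 ranged from -0.01323 to 0.1259 and was negative without Rnf40+/+ replicate 3 (-0.01323) and without Rnf40-/- replicate 2 (-0.002182). The cause was not tested. Over all genes the counts ranged from 3051 to 4299 higher and from 3342 to 4196 lower, and the median of all genes moved by less than 0.05 with each scaling.

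Replicate numbers did not pair the libraries, as the deviations of same-numbered libraries had correlations of 0.012, 0.017 and 0.021. With a replicate block the counts were 4021 higher and 4196 lower genes, and the log2 fold change of E2f4 (-0.18) passed the threshold narrowly (limma, adjusted p = 0.0499996), so that 7 members were lower. With the longest transcript as the length, E2f7 and E2f8 made up 2.37% and 1.06% of the E2f sum in Rnf40+/+ and Rnf40-/- MEFs, and Rb1 37.7% and 60.7% of the pocket sum.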

Other observations

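The gene with the largest fall, E2f8, was compared with all other 16377 genes tested by the Pearson correlation of log2(normalized count + 1) over the 6 libraries. The most similar patterns were those of Tgm2 (r = 0.99996), which encodes a transglutaminase, Mthfd1l (0.9996), which encodes a mitochondrial enzyme of folate metabolism, Plekho2 (0.998), Cnpy4 (0.9978) and Med21 (0.9977), which encodes a subunit of the Mediator complex. A total of 1307 genes had a correlation above 0.95. The 6 points share their genotype. A gene that was lower in Rnf40-/- MEFs, with a spread small against its fall, therefore correlates highly with E2f8. No p is given, and how far spread within a genotype shaped the highest correlations was not tested. Tgm2 went from 568 ± 64.1 to 181 ± 40.1 normalized counts (SD, n = 3 each). The genes differed in the size of their fall, from -0.44 on the log2 scale for Plekho2 to -1.66 for Tgm2, against -1.99 for E2f8.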
